A study of Mus musculus with 8 samples.

Results

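Solute carriers are the membrane proteins that move amino acids, sugars, ions, metals, vitamins and metabolites across the cell membrane and into organelles, without using ATP directly. Their genes are named Slc, then a family number, the letter a and a member number. In mice, 135 genes of this kind are described here, out of 343 protein-coding genes with such a name and 52502 genes that have an exon ID in the deposited counts. They were chosen by level: the counts of a gene over the 8 libraries had to sum to at least 80. Of the other 208 genes, 138 had 1 to 79 counts and 70 had none in any library. The choice used the summed level and not the difference between the groups, so levels are given below as a description. A gene could still reach 80 counts through 1 group alone. In 24 of the 135 genes 1 group held under 40 counts, and of these 24 the test below called 15 higher and 6 lower, so counts over the 135 genes describe this choice and support nothing further.

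The libraries were made from fully grown germinal vesicle oocytes, the immature oocytes of antral follicles, of C57BL/6 females. The cKO group carried Kiaa1429F/F;Zp3-Cre and the control group Kiaa1429F/+;Zp3-Cre, with 4 libraries each of about 20 oocytes. Kiaa1429, also named Virma, belongs to the writer complex of N6-methyladenosine, a methyl mark on messenger RNA. Cre under the Zp3 promoter acts in growing oocytes, and controls carried it too and kept 1 unfloxed copy of the gene. The females, whose age is given both as 20 days and as 3 weeks, received 5 IU of pregnant mare serum gonadotropin 48 hours before collection, and only oocytes with a diameter of 70 µm or more were used. The oocytes were collected in medium with 2.5 mM milrinone, a phosphodiesterase inhibitor that holds them in meiotic arrest. The labels do not tie libraries to animals, so the p-values below measure the spread between libraries.

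In a growing oocyte, solute carriers bring in amino acids and pyruvate, hold cell volume and pH, and load the zinc that mouse oocytes accumulate during meiotic maturation. Part of the supply passes through gap junctions from the surrounding cumulus cells, which carry transporters of their own. The Slc25 family sits apart: most of its members exchange metabolites across the inner membrane of mitochondria.

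Between 4399190 and 5064008 counts fell on exon IDs in the cKO libraries and between 4247471 and 4790038 in the control libraries. Values are given as CPM, the counts of a gene per 1000000 counts of a library after scaling, and 3 counts correspond to 0.592 to 0.706 CPM. Virma itself had 18.6, 24.2, 17.8 and 17.0 CPM in the cKO libraries and 61.0, 71.6, 57.1 and 82.0 CPM in the control libraries, and fell by 1.81 ± 0.18 on the log2 scale (SE; quasi-likelihood test of edgeR, p adjusted by the Benjamini-Hochberg method, adjusted p = 1.02e-06). The 12 oocyte markers summed to 26009 to 31147 CPM in the cKO and 44982 to 58154 CPM in the control libraries, with 1 called higher and 6 lower. The 17 cumulus and granulosa markers summed to 830.4 to 1144 CPM in the cKO and 863 to 982 CPM in the control, with 3 called higher, 3 lower, and Slc38a3 and Wt1 at 0 in every library. The 12 theca, stroma and vessel markers summed to 7.22 to 15.5 CPM in the cKO and 7.75 to 13.9 CPM in the control, with Tagln at 0. The 8 immune and blood markers summed to 5.52 to 9.46 CPM in the cKO and 0.239 to 1.55 CPM in the control, with 5 at 0. C1qa, the only one of the 8 with enough counts to be tested, was called higher, with a mean of 7.003 CPM in the cKO and 0.177 CPM in the control, and Lyz2 had 0.264 CPM in the cKO and 0.350 CPM in the control. Shares of reads are of those counted, those that met several exon IDs and those outside exons. Reads that met several exon IDs enter no count and made up 78.8% to 80.4% in the cKO and 72.9% to 75.4% in the control. Reads outside exons made up 5.01% to 6.19% in the cKO and 9.86% to 12.0% in the control. The part of these shifts in the results below was not tested, and in bulk libraries fewer cells of a type and less RNA per cell cannot be told apart.

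The deposited counts are per exon, and for most solute carriers they come from 1 exon, so the exons of a gene were compared as well as its sum. Of 9 internal coding exons called for exon usage, 5 are shown: those of Slc5a4a and Slc6a15, whose share of their gene differed most, and those of Slc10a6 and Slc16a10, which hold GGACT. Each sequence is taken from GENCODE M21 transcripts on GRCm38 and reads 5′ to 3′ along the transcript. Capitals mark GGACT, a common form of the sequence at which N6-methyladenosine is written.
Slc5a4a, 72-base exon (chr10:76148361-76148432, plus strand): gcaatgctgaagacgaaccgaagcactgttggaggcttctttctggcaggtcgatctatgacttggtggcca
Slc5a4a, 169-base exon (chr10:76181651-76181819, plus strand): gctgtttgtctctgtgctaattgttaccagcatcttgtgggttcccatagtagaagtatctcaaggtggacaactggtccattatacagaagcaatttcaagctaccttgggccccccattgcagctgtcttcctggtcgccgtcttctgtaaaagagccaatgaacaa
Slc6a15, 193-base exon (chr10:103408203-103408395, plus strand): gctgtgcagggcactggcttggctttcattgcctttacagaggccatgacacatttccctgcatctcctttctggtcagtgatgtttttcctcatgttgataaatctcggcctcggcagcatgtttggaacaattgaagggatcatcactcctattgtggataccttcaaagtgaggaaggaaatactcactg
Slc10a6, 119-base exon (chr5:103618356-103618474, minus strand): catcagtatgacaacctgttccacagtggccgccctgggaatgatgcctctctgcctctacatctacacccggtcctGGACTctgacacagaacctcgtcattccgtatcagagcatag
Slc16a10, 145-base exon (chr10:40080663-40080807, minus strand): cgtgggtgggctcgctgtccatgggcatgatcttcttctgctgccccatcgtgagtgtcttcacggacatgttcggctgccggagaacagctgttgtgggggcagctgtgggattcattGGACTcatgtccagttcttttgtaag
The Slc10a6 and Slc16a10 exons each held GGACT once, and the other 7 of the 9 exons did not hold it. The same motif on the other strand, AGTCC, was absent from all 9. Of 2123 internal coding exons tested for usage 31.9% held GGACT. Among those of like length, within 10%, the share was 15% for the Slc10a6 exon and 15.3% for the Slc16a10 exon, and a match says nothing about a methyl mark.

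Single solute carriers differed widely in both directions. In cKO oocytes the monocarboxylate carriers Slc16a6 and Slc16a1 rose by 4.07 ± 0.33 and 1.60 ± 0.15 on the log2 scale (SE), the vesicle protein Slc10a4 by 2.12 ± 0.18 and the acylcarnitine carrier Slc25a20 by 1.89 ± 0.18. The glutamine carrier Slc38a1 fell by 2.74 ± 0.35, the aspartate and glutamate exchanger Slc25a13 by 2.82 ± 0.37 and the bicarbonate exchanger Slc4a8 by 1.48 ± 0.14, and the urate carrier Slc2a9 was left with 2 counts in the cKO against 170 in the control. Of the 134 genes tested, 47 (35.1%) were called higher in cKO oocytes and 32 (23.9%) lower, and 55 were not called. A call is an adjusted p under 0.05 over all 10673 genes tested. Of all genes tested, 54.9% were called, 27.0% higher and 27.9% lower. Among 7871 protein-coding genes with 80 or more counts, 54.0% were called, 30.4% higher and 23.6% lower. The solute carriers thus lay near the background, and their counts are no result about the family as such. The same background holds for the counts of each class below, and no class was tested against it. Their median log2 fold change was 0.09, against 0.02 over all genes tested and 0.10 over the protein-coding genes. The 4 libraries of each group did not overlap in 70 of the 134 genes, with 42 higher and 28 lower in the cKO, against 50.1% of all genes and 49.1% of the protein-coding genes. Slc12a8 had 97 counts, too thinly spread to be tested, at 3.99, 1.91, 3.44 and 4.31 CPM in the cKO and 2.22, 1.68, 1.84 and 1.75 CPM in the control libraries.

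**Figure D1:**
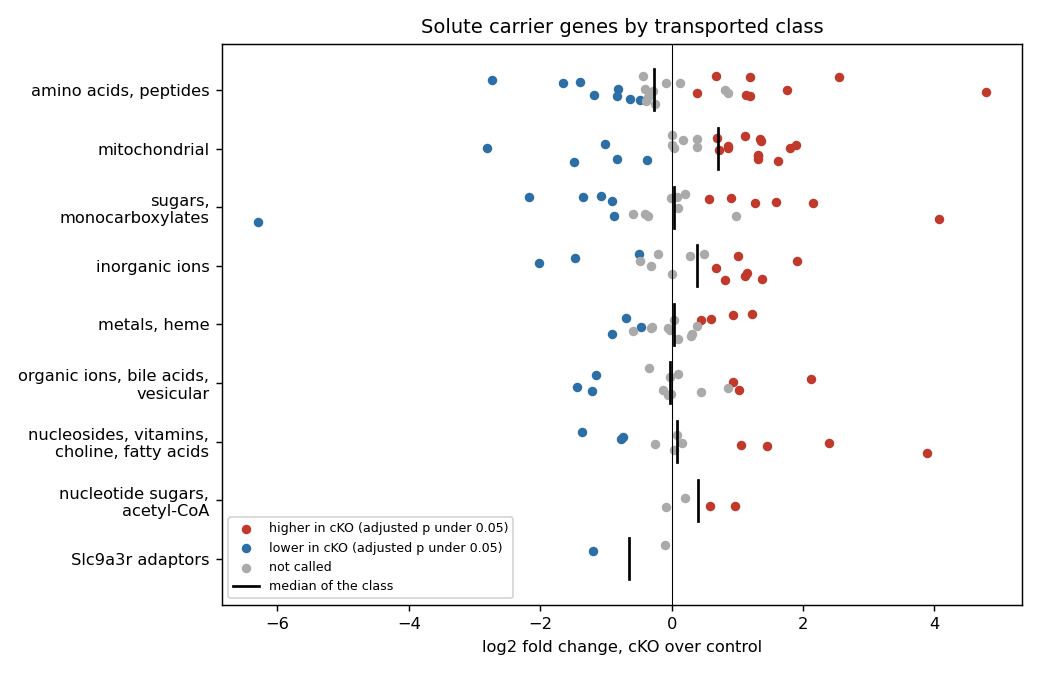
Log2 fold change, cKO over control, of each tested solute carrier (points) by class of transported substance, with members called higher, lower and not called in separate colours and a line at the median of each class. Each class but the pair of adaptors has members on both sides of 0, and the mitochondrial carriers have 13 of 24 members called higher and 5 lower.

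Levels can be compared between genes only per length, here as CPM per kilobase of bases that belong to 1 exon ID alone. On that scale Slc25a17, a carrier of peroxisomes for coenzyme A and related cofactors, stood highest, at 529 in the cKO and 469 in the control. Slc25a31, the ADP and ATP exchanger of germ cell mitochondria, followed with 480.0 in the cKO and 299 in the control. Slc30a3, a zinc carrier of vesicles, had 259 in the cKO and 322 in the control. Then came the zinc importers Slc39a10, with 148 in the cKO and 205 in the control, and Slc39a6, with 162 in the cKO and 158 in the control. The copper carrier Slc31a2 had 134 in the cKO and 125 in the control, the mitochondrial folate carrier Slc25a32 had 155 in the cKO and 85.8 in the control, and the vitamin C carrier Slc23a2 had 92.5 in the cKO and 111 in the control. These 8 exceeded 100 as the mean over both groups, 53 members exceeded 10 and 120 exceeded 1. All of the 8 but Slc23a2 belong to the metal carriers or to the Slc25 family. The length takes in all exons of a gene, although most counts lay on 1 exon, so the order can change with the bases used. The last exon of Slc30a3 held 20058 counts on 813 bases and that of Slc25a31 23664 counts on 1229 bases. Summed over all 135 genes the level was 10139 ± 258 CPM in the cKO and 9459 ± 609 CPM in the control (SD, n = 4 each), and the groups overlapped.

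Of 26 amino acid and peptide carriers 8 were called higher and 8 lower, with a median log2 fold change of -0.26. Slc38a1, a sodium-coupled carrier of glutamine and other neutral amino acids (chr15:96571418-96642913, minus strand), had 2.66, 1.70, 1.72 and 4.49 CPM in the cKO libraries and 25.1, 9.57, 16.3 and 21.3 CPM in the control libraries. Its highest cKO library lay below its lowest control library, and Slc38a1 fell by 2.74 ± 0.35 on the log2 scale (edgeR adjusted p = 1.16e-05). Its close relative Slc38a2, with 0.886, 6.59, 4.08 and 8.05 CPM in the cKO and 1.77, 1.68, 1.84 and 5.75 CPM in the control, overlapped between the groups and had a log2 fold change of 0.85 ± 0.53. The edgeR adjusted p of Slc38a2 was 0.188, and it fell below 0.05 when a single library was left out, namely cKO 1 (0.0275) and control 4 (0.0373).

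Slc15a2, a proton-coupled importer of short peptides, had 75.3, 93.1, 88.6 and 122 CPM in the cKO and 43.0, 35.9, 47.6 and 39.0 CPM in the control. The cKO libraries all lay above the control libraries, and Slc15a2 rose by 1.20 ± 0.17 (edgeR adjusted p = 3.25e-05). Slc36a1, a proton-coupled amino acid carrier of lysosomes, had 16.4, 18.3, 26.4 and 14.8 CPM in the cKO and 7.76, 8.62, 11.05 and 7.25 CPM in the control and rose by 1.13 ± 0.23 (edgeR adjusted p = 0.000798). Again the groups were apart. Its relative Slc36a4 had 15, 21, 28 and 14 counts in the cKO libraries and 1, 1, 0 and 0 in the control libraries. These make 78 counts in the cKO and 2 in the control, a ratio of 33.5 with a 95% interval of 8.96 to 281 that covers counting error only (edgeR adjusted p = 1.09e-05). Slc1a1, an importer of glutamate, aspartate and cysteine, had 10.2, 12.1, 7.95 and 10.3 CPM in the cKO and 1.33, 0.718, 1.84 and 3.00 CPM in the control and rose by 2.55 ± 0.33 (edgeR adjusted p = 1.24e-05). All counts of Slc1a1 lay on its last exon, where 4430402I18Rik also has an exon. Of the 2307 bases of that last exon 1322 belong to 1 exon ID alone, and reads that met several exon IDs enter no count. Any part of 4430402I18Rik in the counts was not tested.

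The proline and betaine carrier Slc6a20a had 17.5, 20.4, 18.5 and 24.0 CPM in the cKO and 54.6, 50.5, 49.7 and 56.5 CPM in the control and fell by 1.39 ± 0.16 (edgeR adjusted p = 4.5e-06). The groups were well apart, but the fall lay on the last exon, which Gm17120 overlaps and which held 300 counts in the cKO and 801 in the control. On the remaining exons Slc6a20a had 89 counts in the cKO and 71 in the control, and with last exons left out the log2 fold change was 0.26 (edgeR adjusted p = 0.514). Its near copy Slc6a20b had 3.10, 3.82, 2.36 and 2.62 CPM in the cKO and 5.77, 5.27, 4.21 and 6.00 CPM in the control, with a log2 fold change of -0.84 ± 0.27 (edgeR adjusted p = 0.0155, and 0.0505 without cKO 4). Reads could be split between such copies, and Sacm1l has an exon over the last exon of Slc6a20b, which held 86.9% of its counts. Slc6a15, a carrier of branched-chain amino acids, had 12.2, 9.99, 8.17 and 14.8 CPM in the cKO and 21.5, 13.6, 37.1 and 30.5 CPM in the control, and the groups overlapped although Slc6a15 fell by 1.18 ± 0.28 (edgeR adjusted p = 0.00259). With last exons left out that p was 0.0564.

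Further falls were those of Slc7a8, an exchanger of neutral amino acids, by 1.65 ± 0.34, and of Slc43a3, a carrier of purine nucleobases in a family of amino acid carriers, by 0.82 ± 0.15. Slc43a3 had 82.9, 73.3, 57.6 and 81.8 CPM in the cKO and 116, 140.3, 147 and 119 CPM in the control, with no overlap. Slc15a5, a member of the peptide carrier family, had 50.1, 50.1, 45.1 and 54.3 CPM in the cKO and 60.5, 57.2, 79.7 and 80.5 CPM in the control and fell by 0.48 ± 0.16 (edgeR adjusted p = 0.0192, and 0.0966 with no scaling beyond library size). Slc15a1, the intestinal relative of Slc15a2, rose by 1.76 ± 0.31 on few counts, at 4.87, 3.40, 5.80 and 5.06 CPM in the cKO and 1.11, 1.68, 1.32 and 1.501 CPM in the control.

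Some amino acid carriers are known from earlier work on oocytes. Slc6a6, the taurine carrier, had 89.7, 101, 102 and 76.0 CPM in the cKO and 61.4, 80.4, 71.0 and 68.3 CPM in the control, with overlap and a log2 fold change of 0.39 ± 0.15 (edgeR adjusted p = 0.0363). That call ended without any of cKO 1 (0.0578), cKO 2 (0.101), cKO 3 (0.125), control 1 (0.133) and control 4 (0.0719), adjusted p in brackets. Slc7a5, the light chain of the large neutral amino acid exchanger, had 16.2, 19.5, 26.2 and 13.9 CPM in the cKO and 9.09, 17.2, 9.995 and 11.3 CPM in the control, also with overlap and a log2 fold change of 0.67 ± 0.25 (edgeR adjusted p = 0.0353). Its call ended without cKO 2 (0.0655), cKO 3 (0.16), control 1 (0.117), control 3 (0.0786) and control 4 (0.0716), each left out alone. The heavy chain that Slc7a5 pairs with, Slc3a2, had 2.44, 4.25, 3.01 and 3.00 CPM in the cKO and 2.66, 3.35, 2.89 and 2.75 CPM in the control and was not called (log2 fold change 0.12 ± 0.29). Slc7a11, the exchanger of cystine for glutamate, was not called, at 577, 634, 612 and 571 CPM in the cKO and 635, 545, 712 and 652 CPM in the control (log2 fold change -0.09 ± 0.12). The cKO libraries lay inside the range of the control libraries.

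Slc7a14 had a log2 fold change of 1.19 ± 0.39 and was not called without cKO 3 (0.0775) and control 2 (0.0595). The proline carrier Slc6a7 had a log2 fold change of -0.64 ± 0.25 and was not called without cKO 1 (0.134), cKO 4 (0.125), control 1 (0.0903) and control 2 (0.138), each library left out alone. Not called in this class, with log2 fold changes in brackets, were Slc7a2 (0.81), Slc38a9 (-0.25), Slc6a21 (-0.28), Slc7a1 (-0.36), Slc6a4 (-0.39), Slc38a8 (-0.40) and Slc7a7 (-0.43). They include Slc6a4, the serotonin carrier, and Slc38a9, an arginine sensor of lysosomes. With single libraries left out calls appeared for Slc7a2 without control 3 (0.0263), Slc7a1 without cKO 3 (0.0467), Slc38a8 without cKO 3 (0.0298) and control 4 (0.0339) and Slc7a7 without control 3 (0.0422), edgeR adjusted p in brackets. Several carriers described for oocytes or cumulus cells did not reach 80 counts over the 8 libraries. The glycine carrier Slc6a9 had 40 counts in all, Slc7a6 had 5, Slc1a4 had 3, and Slc1a5 and Slc38a3 had 0. Such sums do not show that a gene was silent, since reads shared by several exon IDs were not counted.

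Of 20 sugar and monocarboxylate carriers 6 were called higher and 6 lower, with a median log2 fold change of 0.03. Slc16a6, which exports ketone bodies from the liver of zebrafish (chr11:109450855-109473598, minus strand), had 14.8, 18.5, 30.5 and 27.7 CPM in the cKO libraries and 0.887, 1.44, 1.05 and 2.00 CPM in the control libraries. The lowest cKO library exceeded the highest control library several times over. Slc16a6 rose by 4.07 ± 0.33 on the log2 scale (edgeR adjusted p = 1.84e-07), and 92.5% of its counts lay on 1 internal coding exon of 816 bases. Slc16a1, a proton-coupled carrier of lactate and pyruvate (chr3:104638668-104658462, plus strand), had 234, 235, 221 and 224 CPM in the cKO and 66.1, 65.8, 102 and 68.8 CPM in the control. The cKO libraries lay close together and above every control library, and Slc16a1 rose by 1.60 ± 0.15 (edgeR adjusted p = 7.94e-07). Slc16a7, the relative with the higher affinity for pyruvate, went the other way, with 1.33, 1.27, 3.22 and 2.06 CPM in the cKO and 9.54, 6.22, 7.10 and 13.3 CPM in the control, and fell by 2.18 ± 0.34 (edgeR adjusted p = 8.03e-05). For both genes of this pair the groups did not overlap.

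Slc2a9, a urate carrier of the glucose transporter family (chr5:38349273-38503143, minus strand), had 1, 1, 0 and 0 counts in the cKO libraries and 51, 34, 49 and 36 in the control libraries. These make 2 counts in the cKO and 170 in the control, a ratio of 0.0101 with a 95% counting interval of 0.00121 to 0.0370 (edgeR adjusted p = 1.04e-07). Of its counts 98.8% lay on a last exon of 316 bases that holds no coding bases, so the rest of the gene was hardly measured. Slc2a12, a glucose carrier, had 54.3, 39.3, 38.9 and 47.0 CPM in the cKO and 81.8, 104, 113 and 80.3 CPM in the control, without overlap, and fell by 1.08 ± 0.17 (edgeR adjusted p = 7.36e-05). Tbpl1 has an exon over part of its last exon, which held 67.5% of its counts. There 1857 of 2264 bases belong to 1 exon ID alone, and reads that met several exon IDs enter no count. Any part of Tbpl1 in the counts was not tested. The myo-inositol carrier Slc5a3 had 15.5, 14.9, 14.2 and 16.1 CPM in the cKO and 28.4, 34.0, 21.3 and 27.3 CPM in the control and fell by 0.87 ± 0.18 (edgeR adjusted p = 0.000987). It lies within Mrps6. Slc37a3, of the sugar phosphate family, fell by 0.91 ± 0.21 and Slc45a2, a carrier of melanosomes, by 1.35 ± 0.21.

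Slc5a4a, a glucose-sensing member of the sodium-glucose family (chr10:76147451-76189265, plus strand), had 36.8, 38.5, 36.3 and 39.5 CPM in the cKO and 7.32, 6.46, 11.05 and 9.26 CPM in the control. All cKO libraries were higher, and Slc5a4a rose by 2.15 ± 0.20 (edgeR adjusted p = 4.64e-07). Most of the rise lay on the 72-base exon printed above, with 528 counts in the cKO and 14 in the control. The other exons of Slc5a4a held 199 counts in the cKO and 125 in the control. Its near copy Slc5a4b had a log2 fold change of 0.90 ± 0.25 (edgeR adjusted p = 0.00721), which did not pass on last exons alone (0.0763). Slc16a10, a carrier of aromatic amino acids that stands with the monocarboxylate family, had 217, 221, 258 and 187 CPM in the cKO and 134, 141, 160.4 and 158 CPM in the control and rose by 0.57 ± 0.13 (edgeR adjusted p = 0.00202). The groups were apart there as well. Slc37a1, a sugar phosphate carrier of the endoplasmic reticulum, had a log2 fold change of 1.27 ± 0.43 and was not called without any of cKO 3 (0.0859), control 1 (0.077), control 2 (0.0583) and control 4 (0.0583).

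Not called in this class were Slc16a12 (0.98), Slc5a8 (0.20), Slc2a13 (0.09), Slc2a10 (0.08), Slc16a13 (-0.02), Slc16a4 (-0.36), Slc2a5 (-0.41) and Slc45a3 (-0.58). Among them Slc16a12, which carries creatine, had 28.8, 21.2, 19.6 and 29.96 CPM in the cKO and 7.76, 3.35, 29.7 and 10.3 CPM in the control, where control 3 stood with the cKO libraries. Without control 3 Slc16a12 was called (edgeR adjusted p = 0.000239). The fructose carrier Slc2a5 was called only without control 4 among the libraries left out (0.0465). The glucose carriers Slc2a1 and Slc2a3 had 49 and 3 counts over the 8 libraries and the lactate exporter Slc16a3 had 2. Summed over the 20 genes, the level was 740.4 ± 18.9 CPM in the cKO and 541 ± 74.5 CPM in the control (SD, n = 4 each). No control library reached the lowest cKO library. Slc16a1 alone gave a mean of 228 CPM in the cKO and 75.6 CPM in the control to these sums. The distance between the groups thus lay largely on this 1 gene and is no trait of the class.

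**Figure D2:**
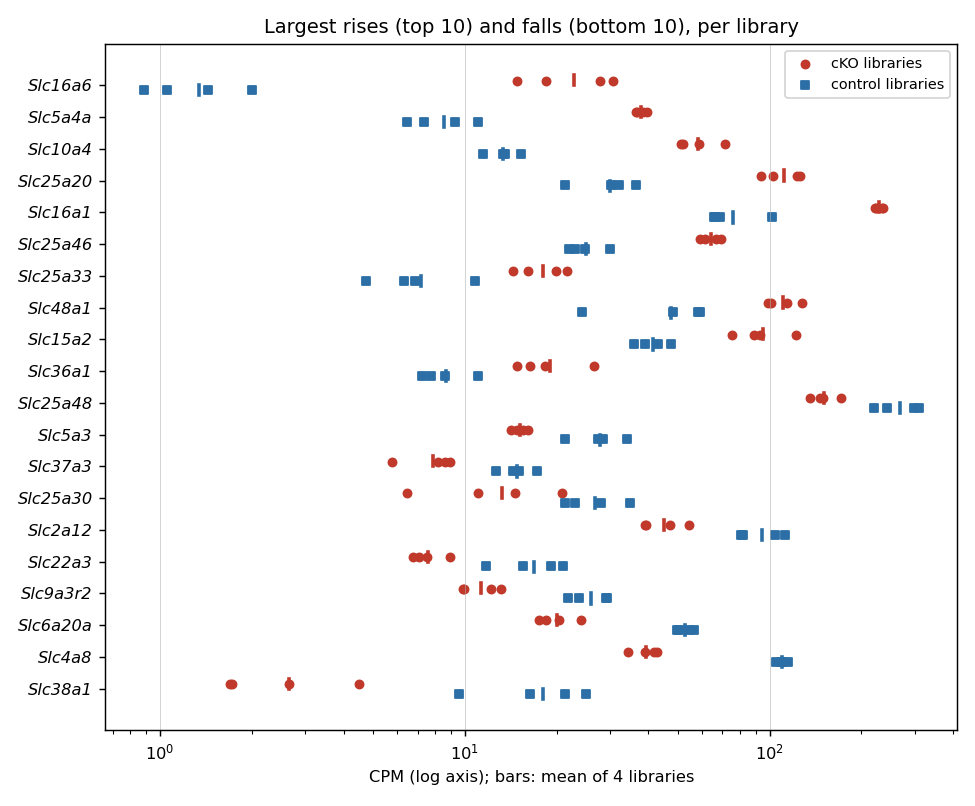
CPM in each library, on a log axis, of the 10 solute carriers with the largest rises and the 10 with the largest falls among called members with a mean of at least 10 CPM and groups that did not overlap. Circles stand for cKO libraries, squares for control libraries and bars for their means; Slc16a6 at the top has 14.8 to 30.5 CPM in the cKO and 0.887 to 2.00 in the control, and Slc38a1 at the bottom 1.70 to 4.49 CPM in the cKO and 9.57 to 25.1 in the control.

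Of the 24 members of the Slc25 family 13 (54.2%) were called higher and 5 (20.8%) lower, with a median log2 fold change of 0.70. Of all genes tested 27.0% were called higher, and whether the family stands apart from other genes was not tested. Slc25a20, which brings acylcarnitines into mitochondria for the oxidation of fatty acids (chr9:108662088-108684641, plus strand), had 126, 93.7, 123 and 102 CPM in the cKO libraries and 30.2, 32.1, 36.3 and 21.3 CPM in the control libraries. Every cKO library was above every control library by a wide margin, and Slc25a20 rose by 1.89 ± 0.18 (edgeR adjusted p = 6.65e-07). Slc25a46, a protein of the outer membrane that takes part in mitochondrial fission and lipid exchange, had 66.7, 59.1, 69.0 and 61.2 CPM in the cKO and 22.0, 29.9, 24.7 and 23.0 CPM in the control and rose by 1.36 ± 0.16 (edgeR adjusted p = 4.54e-06). Slc25a33, a carrier of pyrimidine nucleotides, had 19.9, 16.1, 21.7 and 14.4 CPM in the cKO and 6.88, 10.8, 6.31 and 4.75 CPM in the control and rose by 1.32 ± 0.25 (edgeR adjusted p = 0.000409). In both the groups did not overlap.

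The exchangers of ADP for ATP were among the genes called higher. Slc25a31, the form of germ cells (chr3:40708855-40726096, plus strand), had 1010.3, 1046, 1003 and 1026 CPM in the cKO and 659, 513, 669 and 704 CPM in the control and rose by 0.68 ± 0.12 (edgeR adjusted p = 0.00024). Slc25a4, the form of heart and muscle, had 98.4, 93.1, 119 and 101 CPM in the cKO and 49.5, 60.8, 70.5 and 47.3 CPM in the control and rose by 0.85 ± 0.16 (edgeR adjusted p = 0.000359). For both exchangers all cKO libraries were higher. Slc25a5, the form of dividing cells, was not called, at 29.9, 21.9, 24.1 and 28.8 CPM in the cKO and 19.96, 15.6, 19.99 and 24.3 CPM in the control (log2 fold change 0.39 ± 0.19). The folate carrier Slc25a32 had 378, 296, 348 and 321 CPM in the cKO and 153, 173, 268 and 149 CPM in the control and rose by 0.85 ± 0.18 (edgeR adjusted p = 0.000803). Its control 3 was the nearest to the cKO libraries.

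Further members called higher, with log2 fold changes in brackets, were Slc25a27 (1.80), Slc25a29 (1.62), Slc25a36 (1.34), Slc25a11 (1.32), Slc25a10 (1.32), Slc25a23 (1.11) and Slc25a28 (0.72). They carry basic amino acids (Slc25a29), pyrimidine nucleotides (Slc25a36), oxoglutarate (Slc25a11), dicarboxylates (Slc25a10), ATP with magnesium (Slc25a23) and iron (Slc25a28), and Slc25a27 belongs to the uncoupling proteins. Slc25a28 was not called without cKO 3 (0.0842) and control 4 (0.0651), and Slc25a23 not without cKO 2 (0.0534), cKO 3 (0.12), control 1 (0.0844), control 3 (0.0799) and control 4 (0.09), each library left out alone and the edgeR adjusted p in brackets. Gm17168 has an exon over part of the last exon of Slc25a23, which held 97.6% of its counts. There 1488 of 1953 bases belong to 1 exon ID alone, and reads that met several exon IDs enter no count. Any part of Gm17168 in the counts was not tested.

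Among the falls, Slc25a13, a mitochondrial exchanger of aspartate for glutamate, had 1.11, 0.425, 0.860 and 2.43 CPM in the cKO and 9.09, 9.34, 6.84 and 10.3 CPM in the control. The groups were far apart, and Slc25a13 fell by 2.82 ± 0.37 (edgeR adjusted p = 1.37e-05). Of its counts 66.1% lay on a last exon of 433 bases without coding bases. Slc25a12, which does the same exchange, had 7.31, 8.07, 7.09 and 6.37 CPM in the cKO and 6.88, 7.42, 8.94 and 5.50 CPM in the control, with full overlap and a log2 fold change of 0.01 ± 0.22. Slc25a30, a carrier of inorganic anions, fell by 1.01 ± 0.29, and Slc25a26, which brings S-adenosylmethionine, the donor of methyl groups, into mitochondria, fell by 1.48 ± 0.35 (edgeR adjusted p = 0.00237). Slc25a26 had 1.55, 2.12, 1.505 and 1.12 CPM in the cKO and 3.33, 6.70, 2.89 and 4.75 CPM in the control. Its most counted exon, an untranslated internal one of 84 bases, held 37.9% of its few counts. That exon had 19 counts in the cKO and 20 in the control, so the fall lay mostly on other exons. Slc25a48, a choline carrier, had 146, 150.0, 171 and 135 CPM in the cKO and 244, 308, 298 and 219.6 CPM in the control and fell by 0.83 ± 0.14 (edgeR adjusted p = 0.000164, and 0.0573 with last exons left out). The ornithine carrier Slc25a15 had 225, 219, 227 and 195 CPM in the cKO and 286, 319.6, 238 and 281 CPM in the control, with a log2 fold change of -0.38 ± 0.13 and no call without cKO 2 (0.0529) and cKO 4 (0.0788).

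Slc25a17, the highest member per length, had 899, 907, 859 and 901 CPM in the cKO and 812, 651, 799 and 899 CPM in the control. Control 4 lay within the range of the cKO libraries, and Slc25a17 was not called (log2 fold change 0.17 ± 0.12, edgeR adjusted p = 0.242). With last exons left out its log2 fold change was -0.61 (edgeR adjusted p = 0.0163). Its last exon held 98.2% of its counts, so that value rests on the small remainder. Not called either, with log2 fold changes in brackets, were Slc25a1 (0.39), Slc25a38 (0.04) and Slc25a16 (0.0048), of which Slc25a1 carries citrate and Slc25a38 glycine. Summed over the 24 genes the level was 3175 ± 68.6 CPM in the cKO and 2525 ± 126 CPM in the control (SD, n = 4 each). The lowest cKO library, at 3105 CPM, lay above the highest control library, at 2678 CPM.

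**Figure D3:**
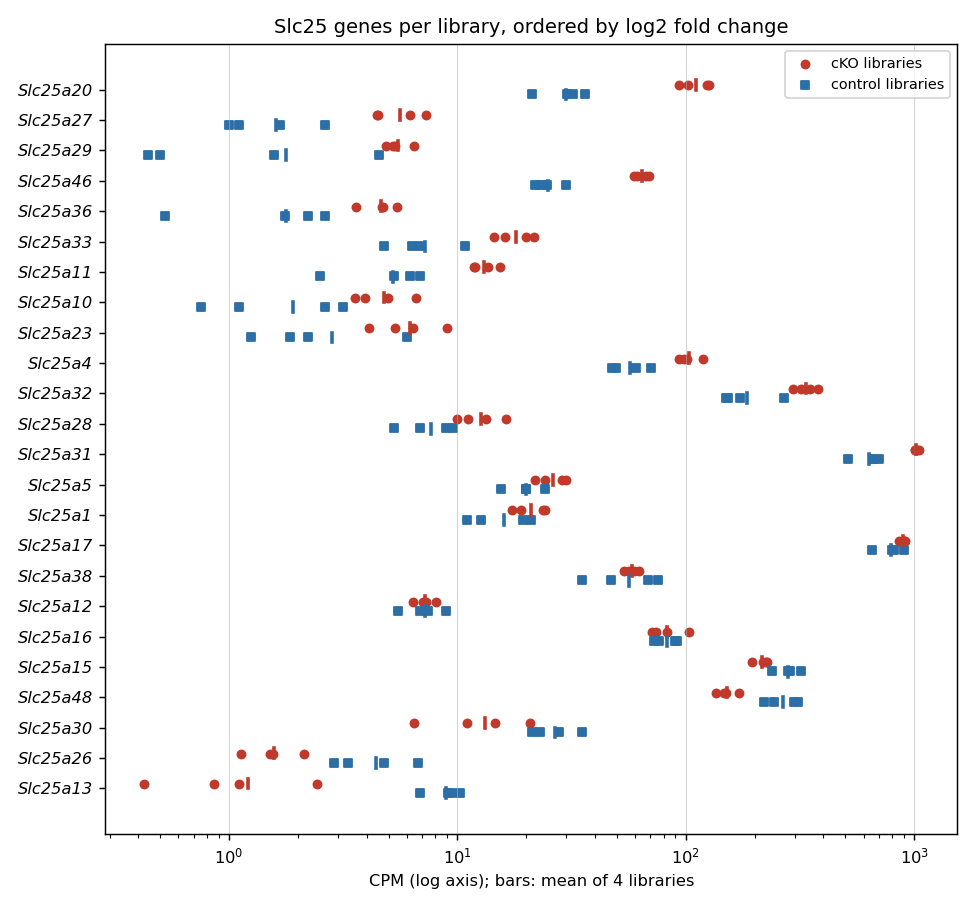
CPM in each library, on a log axis, of the 24 Slc25 carriers, ordered by log2 fold change, with circles for cKO libraries, squares for control libraries and bars for their means. Slc25a20 shows the largest rise and Slc25a13 the largest fall of the 24.

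Of 17 carriers of metals and heme 4 were called higher and 3 lower, with a median log2 fold change of 0.04. Slc39a10 and Slc39a6 are the zinc importers known from mouse oocytes. Slc39a10 had 647, 586, 556 and 541 CPM in the cKO and 800.0, 694, 939 and 792 CPM in the control and fell by 0.47 ± 0.12 (edgeR adjusted p = 0.00483). Its groups did not overlap, but with last exons left out the log2 fold change was 0.15 (edgeR adjusted p = 0.609). The last exon of Slc39a10 held 97.7% of its counts, so that value rests on the small remainder. Slc39a6 had 412, 504, 581 and 432 CPM in the cKO and 454, 501, 482 and 443 CPM in the control and was not called (log2 fold change 0.04 ± 0.13). Slc30a3 had 490.3, 464, 565 and 532 CPM in the cKO and 407, 826, 959.8 and 356 CPM in the control. Control 2 and 3 lay above and control 1 and 4 below all cKO libraries, and it was not called (log2 fold change -0.31 ± 0.25). Slc30a1, the zinc exporter of the cell membrane, had 41.7, 63.3, 75.2 and 49.6 CPM in the cKO and 42.4, 50.7, 32.4 and 59.0 CPM in the control, with overlap and no call (log2 fold change 0.32 ± 0.21).

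The heme carrier Slc48a1 had 101, 98.4, 128 and 114 CPM in the cKO and 48.1, 58.4, 59.2 and 24.3 CPM in the control and rose by 1.22 ± 0.22 (edgeR adjusted p = 0.00031). The groups were apart. An exon of Hdac7 overlaps part of the last exon of Slc48a1, which held nearly all of its counts. Of the 2106 bases of that last exon 2077 belong to 1 exon ID alone, and reads that met several exon IDs enter no count. Any part of Hdac7 in the counts was not tested. Slc11a2, an importer of iron and other divalent metals, had 42.3, 45.5, 53.7 and 50.4 CPM in the cKO and 22.6, 33.0, 26.0 and 19.0 CPM in the control and rose by 0.93 ± 0.19 (edgeR adjusted p = 0.000589). Slc30a6, a zinc carrier of the Golgi, rose by 0.60 ± 0.18, while Slc30a7, a Golgi zinc carrier as well, fell by 0.91 ± 0.21 (edgeR adjusted p = 0.00205). Slc30a7 had 6.43, 6.16, 7.09 and 6.37 CPM in the cKO and 12.0, 15.3, 9.47 and 12.3 CPM in the control. Gm43106 and Gm6649 have exons over part of its last exon, which held 86.0% of its counts. There 5161 of 7739 bases belong to 1 exon ID alone. Any part of these genes in the counts was not tested. The magnesium carriers split too: Slc41a2 had a log2 fold change of 0.44 ± 0.14, with no call without control 1 (0.0674), and Slc41a1 fell by 0.69 ± 0.20. Not called were Slc41a3 (0.39), Slc39a11 (0.29), Slc31a2 (0.10), Slc30a4 (-0.03), Slc39a9 (-0.06), Slc30a9 (-0.30) and Slc39a1 (-0.59), and Slc39a1 was called without control 3 (0.00155). Summed over the 17 genes the level was 2469 ± 96.5 CPM in the cKO and 2663 ± 419 CPM in the control (SD, n = 4 each), with the cKO libraries inside the range of the control libraries.

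Of 17 carriers of inorganic ions 16 were tested, with 7 (43.75%) called higher and 3 (18.75%) lower and a median log2 fold change of 0.39. Of all genes tested 27.0% were called higher and 27.9% lower, and whether these carriers stand apart from other genes was not tested. Slc12a2, which brings sodium, potassium and chloride into the cell together, had 199, 261, 248 and 202 CPM in the cKO and 112, 146, 67.9 and 94.1 CPM in the control and rose by 1.11 ± 0.20 (edgeR adjusted p = 0.000208). Slc34a2, a sodium-phosphate importer, had 5.32, 5.31, 6.23 and 6.18 CPM in the cKO and 1.77, 1.20, 1.84 and 1.25 CPM in the control and rose by 1.91 ± 0.29 (edgeR adjusted p = 4.99e-05). Slc9a3, an exchanger of sodium for protons, had 117, 139, 171 and 109.7 CPM in the cKO and 70.5, 82.3, 43.9 and 69.5 CPM in the control and rose by 1.01 ± 0.19. For these 3 genes no library of one group fell within the other. The phosphate importer Slc20a2, the bicarbonate importer Slc4a7 and the endosomal exchanger Slc9a9 rose by 0.67 ± 0.19, 1.15 ± 0.29 and 1.38 ± 0.40. The sulfate carrier Slc26a2 had a log2 fold change of 0.81 ± 0.26 and no call without control 1 (0.0603).

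Slc4a8, a sodium-driven exchanger of chloride for bicarbonate (chr15:100761747-100823968, plus strand), had 42.5, 41.6, 34.4 and 39.1 CPM in the cKO and 105, 115, 109.9 and 109 CPM in the control. Both groups were tight and far apart, and Slc4a8 fell by 1.48 ± 0.14 (edgeR adjusted p = 5.48e-07). Slc24a4, which exchanges sodium for calcium and potassium, had 1.77, 1.70, 0.430 and 1.12 CPM in the cKO and 5.10, 3.59, 5.79 and 6.25 CPM in the control and fell by 2.02 ± 0.37 (edgeR adjusted p = 0.000266). The chloride carrier Slc26a9 had a log2 fold change of -0.50 ± 0.17, and its call ended without any of cKO 1 (0.0731), cKO 4 (0.0775), control 1 (0.0563) and control 3 (0.0547). Slc26a5, the motor protein of outer hair cells, had 48.7, 50.1, 36.8 and 51.1 CPM in the cKO and 76.7, 65.1, 40.8 and 78.3 CPM in the control and was not called (log2 fold change -0.48 ± 0.20, edgeR adjusted p = 0.0525, and 0.00355 without control 3). On last exons alone Slc26a5 was called higher, with a log2 fold change of 1.57 (edgeR adjusted p = 0.000199). With last exons left out it was called lower, with -0.59 (edgeR adjusted p = 0.0333). Of its counts 76.1% lay on 1 internal exon of 114 bases, shorter than a read. Also not called were Slc26a6 (0.49), Slc26a7 (0.29), Slc20a1 (-0.21) and Slc12a9 (-0.31), but without control 4 Slc26a7 was called higher, with a log2 fold change of 1.56 (edgeR adjusted p = 0.0104). The sodium-calcium exchanger Slc8a1 did not reach 80 counts and was not tested, with 3, 8, 15 and 12 counts in the cKO libraries and 1, 0, 0 and 0 in the control libraries. The bicarbonate carriers Slc4a4 and Slc4a2 had 31 and 12 counts over the 8 libraries.

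The adaptors Slc9a3r1 and Slc9a3r2 carry an Slc name but transport nothing: they tether exchangers and receptors to the cytoskeleton. Slc9a3r2 had 12.2, 13.2, 9.89 and 9.92 CPM in the cKO and 29.3, 29.0, 23.7 and 21.8 CPM in the control, without overlap, and fell by 1.20 ± 0.19 (edgeR adjusted p = 9e-05). Slc9a3r1, with 51.4, 44.4, 63.8 and 49.4 CPM in the cKO and 43.5, 77.8, 70.8 and 32.3 CPM in the control, was not called (log2 fold change -0.10 ± 0.24), and its control libraries spread to both sides of the cKO libraries.

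Of 11 carriers of nucleosides, vitamins, choline and fatty acids 4 were called higher and 3 lower, with a median log2 fold change of 0.09. Slc46a1, the proton-coupled folate importer (chr11:78465697-78472059, plus strand), had 23, 16, 29 and 44 counts in the cKO libraries and 0, 2, 3 and 1 in the control libraries. These make 112 counts in the cKO and 6 in the control, a ratio of 16.0 with a 95% counting interval of 7.13 to 44.6 (edgeR adjusted p = 1.72e-05). All of its counts lay on 1 internal coding exon of 853 bases. Slc27a4, which takes up and activates long-chain fatty acids, had 7.98, 14.2, 17.4 and 14.2 CPM in the cKO and 2.66, 3.11, 2.37 and 2.00 CPM in the control and rose by 2.39 ± 0.29 (edgeR adjusted p = 6.42e-06). The lysosomal nucleoside carrier Slc29a3 had 11.5, 14.0, 15.5 and 12.5 CPM in the cKO and 3.55, 5.27, 5.79 and 5.003 CPM in the control and rose by 1.45 ± 0.22 (edgeR adjusted p = 6.69e-05). Slc44a5, of the choline carrier family, had 40.3, 39.9, 32.03 and 32.2 CPM in the cKO and 19.1, 15.6, 17.4 and 17.3 CPM in the control and rose by 1.06 ± 0.17 (edgeR adjusted p = 9.18e-05). In each of these 4 genes every cKO library was above every control library.

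The sodium-coupled nucleoside carriers Slc28a1 and Slc28a3 fell by 0.76 ± 0.23 and 1.37 ± 0.41, and Slc23a3, a relative of the vitamin C carriers, by 0.73 ± 0.19. Slc23a3 was not called with last exons left out (edgeR adjusted p = 0.175), nor Slc28a3 on last exons alone (0.0518). The last exon of Slc23a3 held 89.9% of its counts. The vitamin C carrier Slc23a2 had 569, 612, 649.8 and 462 CPM in the cKO and 749.7, 654, 697 and 643 CPM in the control, and its highest cKO library stood just above its lowest control library. It was not called (log2 fold change -0.26 ± 0.13, edgeR adjusted p = 0.1, and 0.0466 without cKO 3). Slc44a1, the main choline carrier of the family, had 347, 367, 279.9 and 345 CPM in the cKO and 332, 281, 229.6 and 354 CPM in the control and was not called (log2 fold change 0.16 ± 0.15). With last exons left out Slc44a1 was called higher, with a log2 fold change of 1.09 (edgeR adjusted p = 0.00526). That value rests on few counts, since the last exon of Slc44a1 held 98.0% of them. The nucleoside carrier Slc29a2 and the riboflavin carrier Slc52a2 were not called, with log2 fold changes of 0.09 ± 0.29 and 0.03 ± 0.25, and the reduced folate carrier Slc19a1 had 33 counts over the 8 libraries.

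Of the 4 carriers of nucleotide sugars and acetyl-CoA in the Golgi and endoplasmic reticulum 2 were called higher and the other two were not called, with a median log2 fold change of 0.40. Slc35a3, for UDP-N-acetylglucosamine, had 60.9, 81.0, 57.8 and 71.5 CPM in the cKO and 33.9, 34.5, 31.6 and 39.0 CPM in the control and rose by 0.96 ± 0.16 (edgeR adjusted p = 0.00012). Slc35a1, for CMP-sialic acid, had 95.05, 93.1, 91.8 and 90.8 CPM in the cKO and 65.2, 60.8, 67.9 and 53.5 CPM in the control and rose by 0.58 ± 0.13 (edgeR adjusted p = 0.00186). The groups were apart in both. Slc35a5 and the acetyl-CoA carrier Slc33a1 were not called, with log2 fold changes of 0.21 ± 0.17 and -0.09 ± 0.22, and Slc35a5 was called without control 3 (edgeR adjusted p = 0.048).

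Of 14 carriers of organic ions and bile acids and of vesicles 3 were called higher and 3 lower, with a median log2 fold change of -0.02. Slc10a4, found in synaptic vesicles and related to the bile acid carriers (chr5:73006883-73012955, plus strand), had 52.1, 51.2, 71.6 and 58.6 CPM in the cKO and 13.3, 11.5, 15.3 and 13.5 CPM in the control. The cKO libraries were all higher, and Slc10a4 rose by 2.12 ± 0.18 (edgeR adjusted p = 2.22e-07). Slc22a3, a carrier of organic cations, had 7.53, 8.92, 7.09 and 6.74 CPM in the cKO and 11.8, 19.1, 21.04 and 15.5 CPM in the control and fell by 1.15 ± 0.23 (edgeR adjusted p = 0.00052). The urate carrier Slc22a13 and the cation exporter Slc47a2 fell by 1.22 ± 0.35 and 1.44 ± 0.42, both from few counts. Slc10a6, a carrier of sulfated steroids, had 199, 177, 225 and 227 CPM in the cKO and 181, 171, 255 and 172 CPM in the control and was not called (log2 fold change 0.09 ± 0.15). Slc22a5, the main carnitine importer, was not called either, at 16.4, 17.6, 17.6 and 14.98 CPM in the cKO and 13.8, 20.3, 22.4 and 10.8 CPM in the control (log2 fold change -0.01 ± 0.23).

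Slc22a16, a carnitine carrier of the human testis, and Slc17a5, which exports sialic acid from lysosomes, were called higher, with log2 fold changes of 1.03 ± 0.34 and 0.94 ± 0.32. The call of Slc22a16 ended without cKO 3 (0.0624), control 2 (0.059) and control 4 (0.0543) and that of Slc17a5 without cKO 1 (0.0564), cKO 4 (0.0606) and control 4 (0.0733), each left out alone. Of the counts of Slc17a5 96.5% lay on 1 internal exon of 148 bases, shorter than a read. The others not called were Slc14a2 (0.85), Slc17a6 (0.45), Slc22a30 (-0.03), Slc22a23 (-0.06), Slc22a28 (-0.13) and Slc18a2 (-0.35), of which Slc18a2 loads monoamines into vesicles. Slc18a2 was called without cKO 4 (0.0494) and Slc14a2, a urea carrier, without cKO 2 (0.0421), cKO 4 (0.0452) and control 2 (0.0238).

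**Figure D4:**
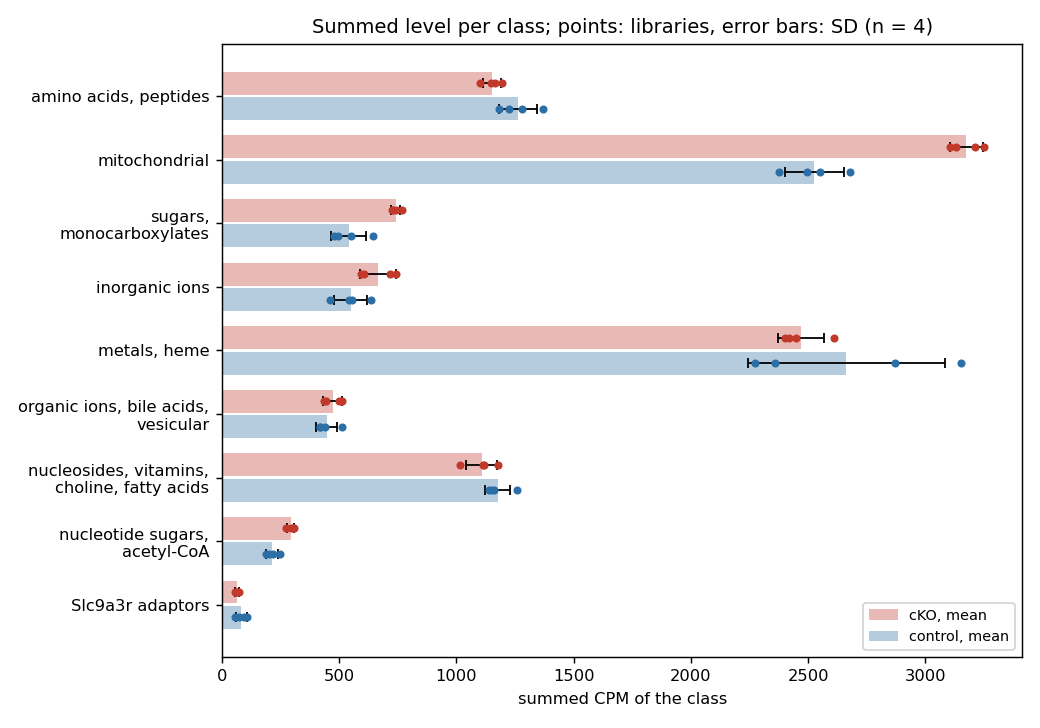
Summed CPM of the solute carriers in each class, with bars for the mean of the cKO above the mean of the control, error bars for the SD (n = 4) and points for the libraries. The mitochondrial carriers, the sugar and monocarboxylate carriers and the nucleotide sugar carriers have cKO libraries that all lie above the control libraries, and the metal carriers have the widest spread among control libraries. Among the sugar and monocarboxylate carriers Slc16a1 alone has a mean of 228 CPM in the cKO and 75.6 CPM in the control.

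Pairs of related carriers were set side by side. Slc5a4a and Slc5a4b were both called higher, as were Slc36a1 and Slc36a4 and the exchangers Slc25a31 and Slc25a4, while Slc6a20a and Slc6a20b and Slc28a1 and Slc28a3 were both called lower. Slc16a1 and Slc16a7 were called in opposite directions. In the pairs of Slc25a12 with Slc25a13, Slc39a6 with Slc39a10, Slc38a1 with Slc38a2 and Slc9a3r1 with Slc9a3r2, 1 gene was called lower and the other was not called. Differences within pairs were not tested.

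The exons of a solute carrier could be compared in 30 of the 135 genes, those with at least 2 exons of enough counts. Use of exons differed in 11 of the 30 (36.7%; 12 at an unadjusted p under 0.05), by edgeR's exon usage test with Simes' method per gene. Of all 2847 genes tested 23.7% were called. Among 73 exons 16 were called, against 13.5% of all 6931 exons tested. Both shares are on genes picked by level, and no reading of the family against other genes follows from them. For the other 105 genes the counts lay on too few exons. Over all 135 genes a median of 93.6% of counts lay on a single exon, which was a last exon in 112, an internal one in 17 and a first one in 6.

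In Slc5a4a the 72-base exon held 75.2%, 83.2%, 82.4% and 79.7% of the counts on tested exons in the cKO libraries and 20.00%, 9.52%, 15.2% and 3.57% in the control libraries. The 169-base exon held the remainder. The order of these exons was thus turned round between the groups, with no overlap, and the usage coefficient of the 72-base exon was 2.64 ± 0.32 on the log2 scale (edgeR adjusted p = 8.88e-07). Reads were 150 bases long per the labels, longer than that exon. A read counted on it alone either was trimmed or reached bases that carry no exon ID, which the files do not resolve. The same limit holds for the called internal exons of Slc26a5 (78 bases), Slc25a17 (83), Slc10a6 (119), Slc25a48 (131), Slc4a8 (132) and Slc16a10 (145). In Slc6a15 the 193-base exon held 40.8%, 38.1%, 41.7% and 20.3% in the cKO and 2.17%, 1.85%, 6.11% and 1.79% in the control, from 67 counts in the cKO and 13 in the control. That exon stood higher in every cKO library although Slc6a15 as a whole was lower (usage coefficient 3.26 ± 0.52, edgeR adjusted p = 1.87e-05).

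Among last exons, that of Slc26a5 held 26.3%, 20.9%, 20.1% and 27.6% in the cKO and 4.19%, 6.11%, 9.46% and 2.99% in the control (edgeR adjusted p = 9.42e-07). All cKO shares were higher. An untranslated last exon of Slc16a10, 750 bases long, held 3.18%, 2.13%, 1.76% and 3.41% in the cKO and 13.0%, 17.7%, 9.42% and 10.7% in the control (edgeR adjusted p = 1.15e-08). Its 145-base internal exon printed above averaged 1.83% ± 0.374 in the cKO and 0.534% ± 0.233 in the control (edgeR adjusted p = 0.00123). For shares of counts, here and below, ± gives the SD (n = 4 each). In Slc38a9 an untranslated exon of 1768 bases averaged 4.53% ± 1.11 in the cKO and 17.1% ± 4.48 in the control (edgeR adjusted p = 3.33e-06). Slc4a8 lost share on its last exon, with 31.99% ± 2.70 in the cKO and 59.2% ± 5.79 in the control (edgeR adjusted p = 0.00161), so its fall was larger at the end of the gene than on its 132-base internal exon.

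Exons of the rest of the 11 genes were called as well. In Slc11a2 a last exon of 1264 bases averaged 41.5% ± 2.77 in the cKO and 23.9% ± 8.13 in the control (edgeR adjusted p = 0.0323), against the alternative last exon of 2761 bases with the remainder. In Slc39a11 a last exon of 171 bases averaged 18.6% ± 4.62 in the cKO and 51.7% ± 16.5 in the control (edgeR adjusted p = 0.00678). The 119-base exon of Slc10a6 averaged 2.28% ± 0.425 in the cKO and 1.01% ± 0.168 in the control (edgeR adjusted p = 0.0115). A 131-base exon of Slc25a48 averaged 6.07% ± 0.343 in the cKO and 2.06% ± 0.731 in the control (edgeR adjusted p = 0.00131), and an 83-base exon of Slc25a17 averaged 0.629% ± 0.0929 in the cKO and 1.42% ± 0.280 in the control (edgeR adjusted p = 0.000987). The alternative last exons of Slc11a2 are known to separate transcripts with and without an iron-responsive element.

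**Figure D5:**
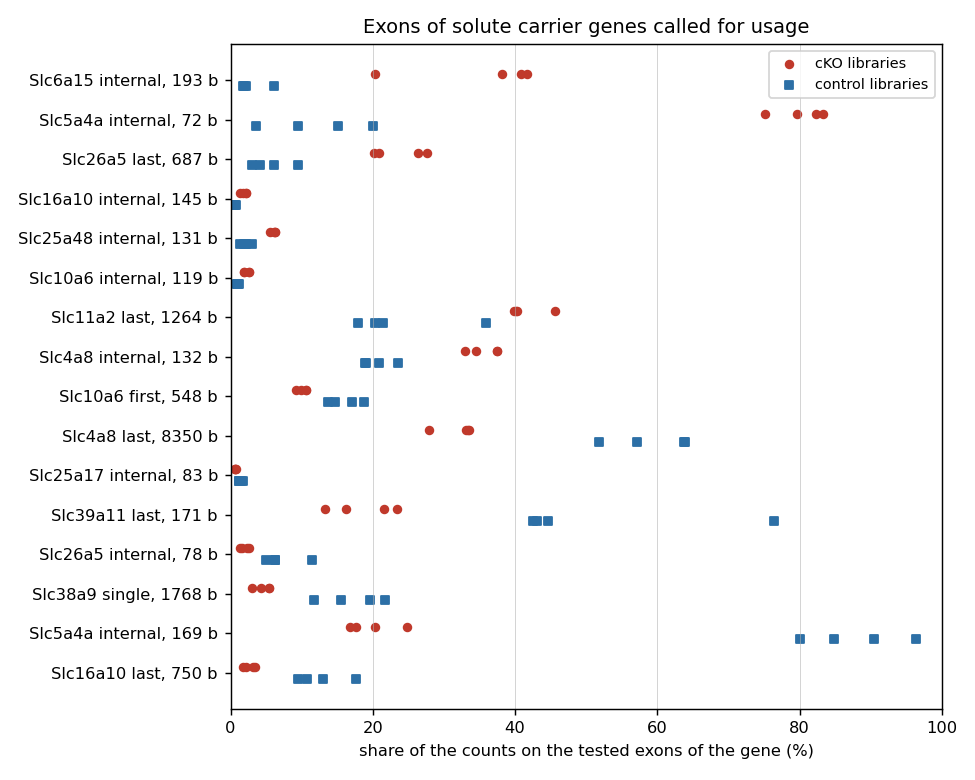
Share of counts (percent of the counts on tested exons of the gene) of single exons of solute carriers called for exon usage, with 1 point per library, circles for the cKO and squares for the control. The 72-base exon of Slc5a4a holds 75.2% to 83.2% in the cKO and 3.57% to 20.0% in the control.

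Other transporters were read beside the solute carriers. Of 50 listed carriers under other symbols 15 were tested, with 7 called higher and 1 lower. Mfsd5, a carrier of molybdate in humans, averaged 209 ± 30.6 CPM in the cKO and 38.1 ± 15.7 CPM in the control (SD, n = 4 each) and rose by 2.46 ± 0.24 on the log2 scale. Sfxn1, a serine carrier of mitochondria, rose by 1.93 ± 0.29, and Mpc2, a subunit of the mitochondrial pyruvate carrier, fell by 1.43 ± 0.31. Of 23 listed ATP-driven ion pumps 13 were tested, of which 5 were called higher and the other 8 were not called. Among the 5 were the copper pumps Atp7a and Atp7b with 1.64 ± 0.31 and 2.33 ± 0.38 and the calcium pump Atp2b1 with 0.51 ± 0.14. Of 50 genes named as ATP-binding cassette proteins 24 were tested, with 7 called higher and 5 lower. The list was made by symbol and holds Abce1, Abcf1, Abcf2 and Abcf3, which are not transporters. Abce1 is among those called higher (log2 fold change 1.06 ± 0.13) and Abcf3 among those called lower (-0.44 ± 0.16). The cholesterol exporter Abca1 rose by 3.53 ± 0.41 and the lipid transporter Abca12 fell by 2.13 ± 0.26. Of the metallothioneins, which bind zinc and copper, and their regulator 3 of 5 were tested. Mtf1, the regulator, fell by 1.92 ± 0.21 and Mt4 by 0.86 ± 0.22. Mt1 was not called (log2 fold change 1.31 ± 0.77, edgeR adjusted p = 0.164). It had 80.2 to 97.3 CPM in the cKO and 0.250 to 90.7 CPM in the control. The overall shares called were those given above for all genes.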

How the data were processed

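RNA of 8 oocyte libraries was reverse transcribed from poly(A) tails, amplified, tagmented and sequenced as pairs of 150-base reads, a protocol that does not mark strand. The files deposited by the authors hold counts, 1 whole number for each exon ID, and the submitters' processing notes name STAR, HTSeq and mm10, with versions and annotation not given in the sources used here. Of reads that were counted, met several exon IDs or lay outside exons, 14.6% to 15.6% were counted on exon IDs. The other 84.4% to 85.4%, like the rest of the 5 summary lines of each file, stayed out of library sizes and tests. Of 496288 exon IDs 99.6% matched GENCODE M21, and counts were summed per gene. Genes kept by filterByExpr (minimum count 10) were tested with edgeR 4.0.16 in R 4.3.3, TMM scaling, the quasi-likelihood test and Benjamini-Hochberg adjustment over all genes. The SE is the log2 fold change over the square root of F. Exon usage was tested with diffSpliceDGE in genes with at least 2 kept exons. DESeq2 1.42.0 was an alternative. The procedure was also tested on simulated data. Replicates shared numbers, and the labels do not say whether a number marks a shared experiment. Deviations of same-numbered libraries correlated at -0.05 to 0.10, which cannot exclude a weak pairing, and the main test used no block.

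Members and lists were chosen with earlier results of these data known. Named were the 10 largest rises and falls among called members of at least 10 CPM without overlap, up to 4 called members of smallest p and the 2 of highest level per length in each class, 25 carriers known from oocyte or cumulus work, up to 8 members for exon usage, and the 3 genes on either side of 80 counts. Others are named for completeness, and 1 member is not reported here. Just inside were Slc36a4 and Slc7a2 with 80 counts and Slc7a14 with 88, and just outside Slc25a35 with 79, Slc25a24 with 78 and Slc39a13 with 77. PCR reads without molecular identifiers are not independent molecules, so intervals and floors cover counting error only.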

Additional observations from a re-analysis of the deposited data

Results flagged for a closer look

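In 5 of 124 groups of 4 libraries (4.03%), where chance gives about 5%, 1 library stood far from the others by Dixon's criterion. For Slc16a1 the library was control 3, with 101.8 CPM against 65.8 to 68.8 CPM in the other control libraries, still below every cKO library. Slc10a6 had 254.6 CPM in control 3 and 171.1 to 180.5 CPM in the other control libraries. The remaining groups were those of the cKO, and cKO 3 was the library in each: Slc25a17 had 858.6 CPM there and 898.6 to 906.7 CPM in the other cKO libraries, Slc26a5 had 36.8 CPM there and 48.7 to 51.1 CPM in the others, and Slc7a14 had 5.16 CPM there and 2.55 to 2.88 CPM in the others.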

How the results depend on the processing

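Of 79 called members 57 kept their call and direction under all 18 gene-level alternatives that could test them, and 2 changed direction somewhere, Slc6a20a and Slc39a10. Counts depended most on the last exons, which held 91.0% of the members' counts. With them left out only 48 members were tested, and 19 were called higher and 8 lower. Of the 79 calls 21 were kept and those of Slc6a15, Slc6a20a, Slc23a3, Slc25a48 and Slc39a10 ended. The rest of the 79 could not be tested there. Leaving out 1 library gave 40 to 48 higher and 29 to 35 lower, and in the exon test 9 to 12 genes and 13 to 20 exons. With a minimum count of 30 the exon test called 7 genes of 15 tested and 8 exons of 35. DESeq2 called 44 higher and 30 lower, and no scaling 52 and 28, with all fold changes moved by 0.16 on the log2 scale. With the replicate block 48 were higher and 33 lower, all 79 kept their call, Slc16a12 (log2 fold change 1.25, edgeR adjusted p = 0.0114) and Slc26a5 (-0.45, edgeR adjusted p = 0.0292) were called besides, and the exon test called 11 genes and 17 exons. DESeq2 ended the calls of Slc6a7, Slc6a20b, Slc7a14, Slc17a5 and Slc22a16, no scaling those of Slc6a7, Slc15a5, Slc25a15 and Slc26a9, protein-coding genes only those of Slc6a6 and Slc7a5, and no filter on low counts those of Slc6a6, Slc6a20b and Slc25a15. No scaling added calls for Slc7a2, Slc14a2, Slc16a12, Slc25a5 and Slc25a17. At 40 or more counts there were 158 members and at 160 or more 106.

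Log2 fold changes changed sign with last exons left out in Slc6a20a (0.256), Slc39a10 (0.145), Slc25a17 (-0.607), Slc10a6 (-0.187) and Slc9a3r1 (0.0239), and on last exons alone in Slc26a5 (1.57). No scaling turned Slc22a5 (0.149), Slc7a11 (0.0757) and Slc9a3r1 (0.0563), protein-coding genes only turned Slc39a6 (-0.0518), DESeq2 turned Slc22a5 (0.00438), and the replicate block turned Slc22a5 (0.0314). With 1 library left out values ranged across 0 in Slc22a5 (-0.186 to 0.154), Slc39a6 (-0.0884 to 0.116), Slc3a2 (-0.0353 to 0.237) and Slc9a3r1 (-0.304 to 0.0865). The cause was not tested. Depth limits the 24 genes with under 40 counts in 1 group, and reads that met several exon IDs were not counted. Some counts still fell on shared bases: an exon of Slc52a2 with 0 bases of its own held 1251 counts, which the files do not resolve.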

Other observations

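Slc39a4, an intestinal zinc importer, fell short of the 80 counts with 62 and was tested all the same. It had 12, 14, 16 and 16 counts in the cKO libraries and 2, 1, 1 and 0 in the control libraries, and was called higher (edgeR adjusted p = 2.94e-05). Among 83 solute carriers of at least 10 CPM the median coefficient of variation was 14.2% in the cKO and 18.9% in the control, and over all 6457 genes of that level 12.9% in the cKO and 18.6% in the control. Control 2 and 3 both lay above control 1 and 4 in 32 of the 83 (38.6%), Slc30a3 among them, against 23.1% of all such genes, and both below in 8. This order of control libraries was chosen after the values were seen, the libraries share no label for it, and its part in the results was not tested.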
